A study of Mus musculus with 2 samples.

Results

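This account describes 54 genes of central carbon metabolism in mouse hematopoietic stem cells (HSCs): the glucose and lactate carriers, the enzymes of glycolysis, the kinases and subunits that gate pyruvate entry into mitochondria, the tricarboxylic acid (TCA) cycle, the pentose phosphate pathway, and the hypoxia-inducible factors that control many of these genes. The genes were listed by symbol, and all 54 were found among the 43346 genes of the deposited tables. The study measured total RNA in 2 libraries, each made from a pool of 100 cells labelled as hematopoietic stem cells from adult male C57BL/6J mice of 5 to 6 weeks; no treatment or genetic change is named in the labels. The labels call the libraries biological replicates 1 and 2, but they give both the same donor identifier under different biosample identifiers, so it is unknown if different mice supplied them, and the spread between them may be technical. Which surface markers defined the sort is not stated in the labels. There is a single group, so no comparison between conditions was possible, and every value is given for each library with the mean and SD (n = 2).

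Glycolysis splits glucose into pyruvate in the cytosol. Lactate dehydrogenase then reduces pyruvate to lactate, or the pyruvate dehydrogenase complex turns it into acetyl-CoA for the TCA cycle. Pyruvate dehydrogenase kinases switch that complex off, and the pentose phosphate pathway draws on glucose 6-phosphate to make NADPH and ribose. Stem cells of the bone marrow are known for a reliance on glycolysis, and a role has been ascribed there to the hypoxia-inducible factor Hif1a and to the Pdk kinases. Several steps are served by isozymes from separate genes with different regulation, so the data were read mainly as which isozyme each family used. RNA levels do not measure flux.

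Levels are in TPM, each gene's length-corrected part of all transcripts in its library scaled to a fixed total, which allows genes to be compared. The summed expected counts per library were 48313341 in replicate 1 and 28947093 in replicate 2, of which 19528380 and 10411450 fell on nuclear protein coding genes. Of 10 genes listed as stem cell markers, 9 were detected in both libraries, and the 10 summed to 653 TPM and 474 TPM. The list includes Cd34 (98.1 and 78.1 TPM) and Flt3, which are not particular to stem cells, so the sum does not by itself show stem cell identity. The markers ranged widely. Hlf was at 161.7 and 98.0 TPM, Kit at 107.5 and 117.0 TPM and Flt3 at 58.6 and 42.9 TPM. Procr was low at 3.29 and 6.48 TPM. Slamf1 was at 2.87 TPM in replicate 1 and was not detected in replicate 2 (0.36 TPM). Markers of other cells were also present: all 10 erythroid markers were detected in both libraries (summed 2393 and 2156 TPM), as were all 6 early myeloid markers (558 and 1578 TPM). Of 8 mature neutrophil and monocyte markers, 1 was detected in both libraries, and their sum was 5.11 TPM in replicate 1 but 343 in replicate 2. Skeletal muscle markers were at or near 0 (summed 0 and 0.17 TPM), as were stromal markers (0 and 0.20 TPM). In such bulk pools, fewer cells of a type and less RNA per cell cannot be told apart.

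Most of the pathway was transcribed. A gene was called detected with at least 1 TPM and an expected count of at least 10 in a library. By this rule 47 of the 54 genes were detected in both libraries, beside 24.7% of all genes and 45.5% of protein coding genes. Another 3 genes (Eno2, Ldhb and Pfkfb4) passed in replicate 2 but not in replicate 1, and 4 (Slc2a4, Aldoc, Pdk4 and Epas1) passed in neither. The 54 genes had medians of 27.0 and 21.1 TPM in replicates 1 and 2 (24.1 ± 4.18, SD, n = 2). Over protein coding genes detected in both libraries, the median was 14.0 and 12.5 TPM (13.3 ± 1.05, SD, n = 2). Among the 54, 34 lay above that median in both libraries. The share of protein coding genes that did so was not computed, so this count has no background beside it. Together the 54 genes held 0.962% of nuclear protein coding TPM in replicate 1 and 0.969% in replicate 2. A group of 14 genes was in the top 10% of detected protein coding genes in both libraries: Gpi1, Aldoa, Tpi1, Gapdh, Eno1, Pkm, Pklr and Ldha of glycolysis, Cs, Idh3b, Idh3g, Ogdh and Mdh2 of the TCA cycle, and Tkt of the pentose phosphate pathway.

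**Figure D1:**
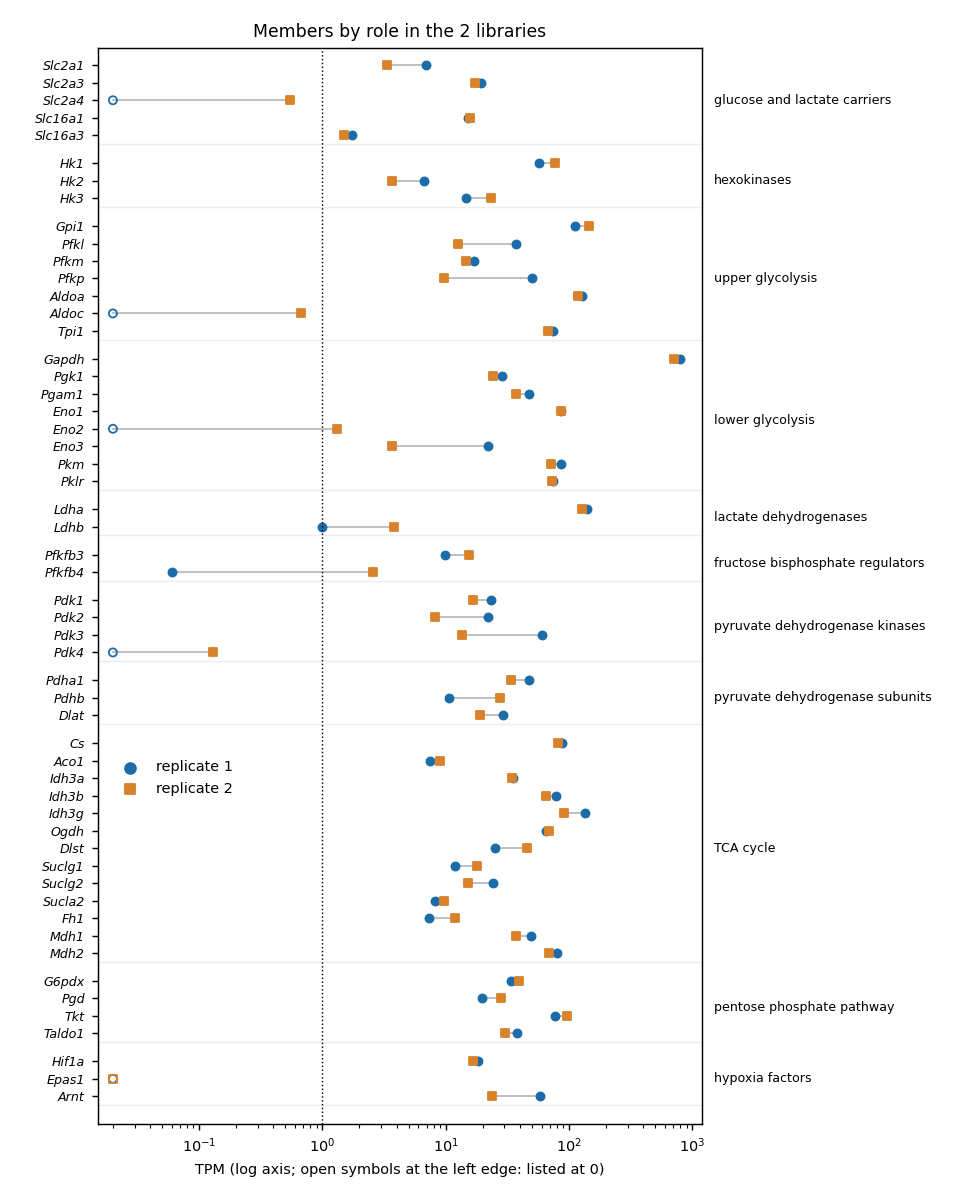
Levels of the 54 genes by role, in TPM on a log axis, with a circle for replicate 1 and a square for replicate 2 (open symbols at the left edge are listed at 0, and the dotted line is at 1 TPM). Gapdh lies farthest right at 798 and 706 TPM, the 13 TCA cycle genes sit close together between the libraries, and among genes detected in both libraries the widest gaps are at Eno3, Pfkp and Pdk3.

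At the entry of glucose, Slc2a3, which encodes the high-affinity transporter GLUT3, exceeded Slc2a1, which encodes the ubiquitous transporter GLUT1. Slc2a3 measured 19.4 TPM (replicate 1) and 17.3 TPM (replicate 2; 18.4 ± 1.53, SD, n = 2). Slc2a1 was at 6.88 and 3.36 TPM (5.12 ± 2.49, SD, n = 2). The ranges of both genes did not overlap, and Slc2a3 held 73.9% and 81.5% of the summed TPM of Slc2a1, Slc2a3 and Slc2a4. On coding transcripts the lead was smaller, with Slc2a3 at 8.87 and 11.3 TPM and 56.3% and 74.4% of that sum. These shares leave out Slc2a8 (4.51 and 4.25 TPM) and Slc2a9 (4.40 and 4.83 TPM), which were below Slc2a1 in replicate 1 and above it in replicate 2. Slc2a4, the insulin-responsive GLUT4 of muscle and fat, had a count of 0 in replicate 1, where 3 counts would be 0.077 TPM, and was at 0.55 TPM on 24 counts in replicate 2. For lactate, the carrier gene Slc16a1 (MCT1) was at 15.3 and 15.9 TPM (15.6 ± 0.424, SD, n = 2). Its relative Slc16a3 (MCT4), known from cells that export much lactate, was at 1.73 and 1.49 TPM (1.61 ± 0.170, SD, n = 2). Slc16a1 thus held 89.8% and 91.4% of the TPM of the pair. Bsg, the chaperone that both carriers need at the cell surface, was at 151.8 and 171.7 TPM (161.7 ± 14.1, SD, n = 2), above every carrier measured here.

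Hexokinases trap glucose as glucose 6-phosphate, and Hk1, the housekeeping form bound to mitochondria, led this family. Hk1 reached 57.3 and 77.6 TPM (67.5 ± 14.3, SD, n = 2). Hk3, a form found mainly in myeloid cells, was at 14.7 and 23.3 TPM (19.0 ± 6.07, SD, n = 2). Hk2, the inducible form typical of muscle and tumours, was at 6.68 and 3.67 TPM (5.18 ± 2.13, SD, n = 2). The order Hk1, Hk3, Hk2 was the same in each library without overlap, and Hk1 held 72.8% and 74.2% of hexokinase TPM. Hk1 exceeded Hk2 by 8.58 times in replicate 1 and 21.1 times in replicate 2. Hk3 was the higher in replicate 2, where the early myeloid markers summed to 1578 TPM against 558 TPM in replicate 1; their part in the Hk3 level was not tested. Below the level of the gene the libraries differed: Hk1-202 was at 36.7 and 23.5 TPM, whereas Hk1-201, annotated with a start 17820 bases upstream, was at 5.77 and 29.7 TPM. For Hk3, Hk3-203 was at 9.55 TPM and Hk3-201 at 0 in replicate 1, while in replicate 2 Hk3-203 was at 0 and Hk3-201 at 14.1 TPM. The gene totals were therefore steadier than the split of reads among these full-length models.

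In the upper part of glycolysis, Gpi1 (glucose 6-phosphate isomerase), Aldoa (the ubiquitous aldolase) and Tpi1 (triose phosphate isomerase) were all high. Gpi1 was at 111.4 and 146.3 TPM (128.9 ± 24.7, SD, n = 2). Aldoa was at 127.6 and 117.5 TPM (122.6 ± 7.11, SD, n = 2), and Tpi1 was at 74.2 and 67.4 TPM (70.8 ± 4.86, SD, n = 2). The brain aldolase gene Aldoc had a count of 0 in replicate 1 and 0.67 TPM on 19 counts in replicate 2, so that Aldoa held 100% and 99.4% of the TPM of the pair. Phosphofructokinase, the committing step, was the exception to this steadiness. Pfkm, the muscle-type gene, was at 16.9 and 14.7 TPM (15.8 ± 1.55, SD, n = 2). Pfkl, the liver-type gene, was at 37.0 and 12.5 TPM (24.8 ± 17.3, SD, n = 2), and Pfkp, the platelet-type gene, was at 50.3 and 9.75 TPM (30.01 ± 28.7, SD, n = 2). The gene totals put Pfkp in the lead in replicate 1 and Pfkm in replicate 2.

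The transcript tables place that disagreement on short models not annotated as coding. The retained-intron model Pfkl-203, 492 bases long, was at 26.0 TPM in replicate 1 but 1.09 in replicate 2, on 308 and 7.14 expected counts. The coding transcript Pfkl-201 was at 11.0 and 11.4 TPM. Likewise the retained-intron model Pfkp-208, 903 bases long, was at 22.6 and 0.48 TPM, and the coding transcripts of Pfkp summed to 4.34 and 1.63 TPM. Counting coding transcripts alone, Pfkm held 52.4% and 53.0% of phosphofructokinase TPM, Pfkl 34.1% and 41.2%, and Pfkp 13.4% and 5.86%. On coding transcripts the order Pfkm, Pfkl, Pfkp was thus the same in both libraries. The Pfkfb enzymes set the level of fructose 2,6-bisphosphate, which activates this step, and of those among the 54 genes Pfkfb3 exceeded Pfkfb4. Pfkfb3 was at 9.86 and 15.4 TPM (12.6 ± 3.90, SD, n = 2), and Pfkfb4 at 0.06 TPM on 6 counts and 2.56 TPM on 149 counts. Coding transcripts of Pfkfb3 were at 9.86 and 6.75 TPM, so the library with the higher level turned. By gene totals Pfkfb2, from another list, was above Pfkfb3 in replicate 1 (14.2 TPM) and below it in replicate 2 (8.20 TPM).

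Gapdh, glyceraldehyde 3-phosphate dehydrogenase, was the highest of the 54 genes at 798 and 706 TPM (752 ± 64.7, SD, n = 2). Its counts were not whole numbers, as were those of Gpi1, Aldoa, Pgk1, Pgam1, Eno1, Ldha, Pdhb and Suclg2, within 0.005 of a count; reads there were shared with other genes by the authors' counting, so these 9 levels are less certain. Pgk1, phosphoglycerate kinase, was much lower at 28.9 and 24.2 TPM (26.6 ± 3.27, SD, n = 2). Pgam1, phosphoglycerate mutase, was at 47.6 and 37.0 TPM (42.3 ± 7.54, SD, n = 2). Of the enolases, the ubiquitous Eno1 was at 86.7 and 85.6 TPM (86.2 ± 0.785, SD, n = 2). The neuronal form Eno2 had a count of 0 in replicate 1 and was at 1.32 TPM on 10 counts in replicate 2. Eno3, the muscle form, was at 22.1 and 3.67 TPM (12.9 ± 13.1, SD, n = 2), with skeletal muscle markers at or near 0. Of the Eno3 level in replicate 1, 20.2 TPM lay on the 568-base model Eno3-207, which was at 0 in replicate 2. On transcripts of 1000 bases or more Eno3 was at 1.88 and 2.90 TPM, and Eno1 held 97.5% and 96.2% of enolase TPM.

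Pyruvate kinase makes pyruvate and ATP, and 2 genes served it at nearly equal levels. Pkm (chr9:59656368-59679375, plus strand, GRCm38) was at 86.0 and 71.0 TPM (78.5 ± 10.6, SD, n = 2). Pklr (chr3:89136142-89146784, plus strand), known as the gene of the liver and red cell enzyme, was at 73.8 and 72.9 TPM (73.3 ± 0.615, SD, n = 2). The ratio of Pkm to Pklr was 1.17 in replicate 1 and 0.974 in replicate 2, so on gene totals the order turned between the libraries, and Pkm held 53.8% and 49.3% of their TPM. It did not turn on coding transcripts, where Pkm held 58.2% and 52.8%, nor on transcripts of 1000 bases or more, where it held 58.2% and 53.4%. The erythroid marker sum was also similar between the libraries, at 2393 and 2156 TPM, but Car1 alone was at 1333 and 1071 TPM of it. Of the 10 erythroid markers, 5 were higher in each library and 9 lay within 2-fold. Klf1 was at 60.9 and 47.8 TPM, Gata1 at 40.6 and 52.05 TPM, and Alas2 at 1.99 and 12.2 TPM. The part of erythroid RNA in the Pklr level was not tested.

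Pkm yields its M1 and M2 isoforms by use of either exon of a mutually exclusive pair. M1 is typical of muscle and brain, and M2, whose activity is regulated, is typical of proliferating cells. The exons are printed because their differing bases are what allows reads to be assigned to an isoform. Each is 167 bases long; the M1 exon lies at chr9:59675029-59675195 and the M2 exon downstream at chr9:59675568-59675734 (plus strand, GRCm38), both coding exons, and capitals mark the 64 positions at which they differ (103 positions, or 61.7%, are identical).
Pkm M1 exon: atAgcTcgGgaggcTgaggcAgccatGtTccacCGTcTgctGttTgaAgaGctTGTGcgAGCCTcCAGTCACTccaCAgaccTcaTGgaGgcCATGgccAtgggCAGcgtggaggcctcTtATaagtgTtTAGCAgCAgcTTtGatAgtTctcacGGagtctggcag
Pkm M2 exon: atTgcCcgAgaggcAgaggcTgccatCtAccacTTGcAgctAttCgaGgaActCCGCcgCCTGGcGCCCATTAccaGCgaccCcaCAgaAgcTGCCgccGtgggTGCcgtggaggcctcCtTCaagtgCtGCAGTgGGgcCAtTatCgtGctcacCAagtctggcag
The differing bases are spread over the exon, so a read within it crosses several of them. Pkm-201, the transcript with the M2 exon, was at 62.3 and 64.4 TPM. Pkm-202, the transcript with the M1 exon, was at 23.7 and 6.64 TPM. The intervals deposited with these values, whose confidence level the tables do not state, ran from 19.4 to 27.0 TPM and from 4.33 to 8.96 TPM for Pkm-202, and did not overlap between the libraries. Such intervals belong to posterior means, so a TPM value can lie past its bound, as that of Pkm-201 did in replicate 2 (64.4 TPM, with an upper bound of 64.3). Both models are 2432 bases long. The M2 share was 72.4% in replicate 1 and 90.6% in replicate 2 (81.5% ± 12.9, SD, n = 2), so M2 led in each library, while the size of the M1 minority differed.

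Pklr likewise has a start used in red cells and another, downstream, used in liver. The most abundant model, Pklr-202, was at 51.6 and 47.2 TPM. Pklr-201, whose annotated start lies 430 bases upstream, was at 10.2 and 14.8 TPM. The models also end 190 bases apart, so their split need not rest on the start. A 345-base processed transcript, Pklr-205, held 12.0 and 9.53 TPM.

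**Figure D2:**
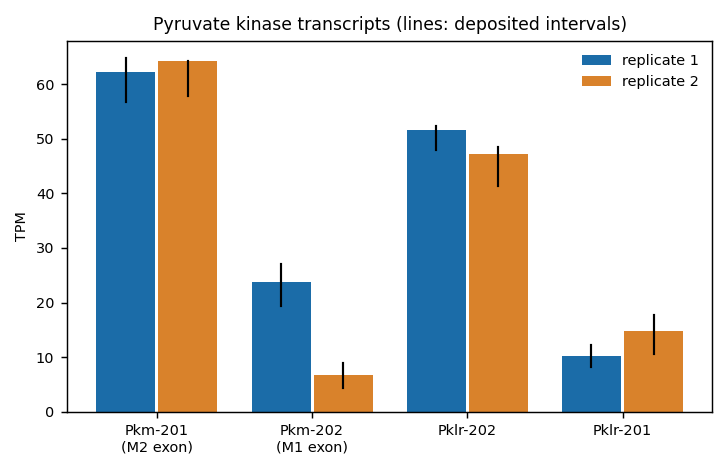
TPM of 4 pyruvate kinase transcripts in replicates 1 and 2 (bars), with the intervals deposited for each value (lines). The M2 transcript of Pkm is near 63 TPM in both libraries (62.3 and 64.4), the M1 transcript is at 23.7 and 6.64 TPM, and Pklr-202 exceeds Pklr-201 in each library.

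Ldha, the lactate dehydrogenase subunit that favours lactate formation, was at 139.7 and 126.6 TPM (133 ± 9.26, SD, n = 2). Ldhb, the subunit typical of heart, was at 0.99 TPM on 29 counts and 3.80 TPM on 73 counts (2.40 ± 1.99, SD, n = 2). Ldha thus exceeded Ldhb by 141 times in replicate 1 and 33.3 times in replicate 2, and held 99.3% and 97.1% of the TPM of the pair (98.2% ± 1.56, SD, n = 2). The ratio rests on low counts of Ldhb, and the cause of its difference between the libraries was not tested. The transcript Ldha-202 carried 95.7% and 94.5% of Ldha TPM. Its annotated start at position 46845839 falls within the RefSeq promoter of Ldha printed here, which spans 250 bases before to 50 after the start. The promoters of this pair are shown because its members differ widely in level and because Ldha is a known target of hypoxia-inducible factors; capitals mark ACGTG or GCGTG, the core letters those factors bind, on either strand (GRCm38.p6). Ldha promoter 1 is at chr7:46845554-46845853 (plus strand), and Ldhb promoter 1 at chr6:142507908-142508207 (minus strand).
Ldha promoter 1: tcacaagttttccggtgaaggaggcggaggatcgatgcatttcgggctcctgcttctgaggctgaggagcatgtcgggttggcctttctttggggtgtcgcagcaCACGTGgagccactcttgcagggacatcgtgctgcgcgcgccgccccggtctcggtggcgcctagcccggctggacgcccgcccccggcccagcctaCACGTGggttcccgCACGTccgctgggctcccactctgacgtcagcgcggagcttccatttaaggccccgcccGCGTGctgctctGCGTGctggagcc
Ldhb promoter 1: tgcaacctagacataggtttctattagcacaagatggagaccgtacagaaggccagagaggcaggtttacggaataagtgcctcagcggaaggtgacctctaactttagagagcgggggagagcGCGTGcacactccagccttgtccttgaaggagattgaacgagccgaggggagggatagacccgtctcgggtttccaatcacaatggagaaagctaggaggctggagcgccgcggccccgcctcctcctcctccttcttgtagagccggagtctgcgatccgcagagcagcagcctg
Ldha promoter 1 held 7 such matches, 5 of them ACGTG, and Ldhb promoter 1 held 1, a GCGTG. Matches were counted on each strand, so a stretch that reads the same on both strands counted as 2 matches. Ldha promoter 1 has 2 stretches of that kind, and its matches lie in 5 separate stretches of capitals, against 1 in Ldhb promoter 1. A second RefSeq promoter of Ldha, at chr7:46846832-46847131, held 2 matches, both GCGTG. These are matches of letters and not measured binding sites.

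Over all members with a RefSeq entry, 50 genes had 71 promoters of the same length, while Idh3a, Slc2a3, Slc2a4 and Epas1 had no entry. The 19931 promoters of protein coding genes belonged to 16317 genes. Promoters of one gene were counted separately even where they overlap, as for Ogdh, whose promoters all held a match. The shares below are thus of promoters, and no share per gene was computed. ACGTG or GCGTG on either strand occurred in 52 of the 71 promoters (73.2%), beside 50.6% of 19931 promoters of protein coding genes and 43.8% of all 32851. ACGTG alone, which CACGTG contains, occurred in 31 (43.7%), beside 21.2% and 19.6%. CACGTG, the letters bound by Myc and its relatives, occurred in 9 (12.7%), beside 8.07% and 7.15%. The members' promoters were also richer in G and C, with a median of 60.3% against 57.0% and 52.7%, and the part of base composition in these shares was not tested.

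Pyruvate dehydrogenase kinases phosphorylate and silence the E1 subunit of the pyruvate dehydrogenase complex. Pdk1 was at 23.5 and 16.6 TPM (20.0 ± 4.89, SD, n = 2) and Pdk2 at 22.2 and 8.14 TPM (15.2 ± 9.92, SD, n = 2). Pdk3 was at 60.4 and 13.7 TPM (37.1 ± 33.1, SD, n = 2). Pdk4, the form induced by fasting in muscle and liver, had a count of 0 in replicate 1 and was at 0.13 TPM on 8 counts in replicate 2. The lead fell to Pdk3 in replicate 1 and to Pdk1 in replicate 2. As with the phosphofructokinases, a short model separated the libraries: Pdk3-203, a 392-base processed transcript, was at 39.7 TPM on 344 expected counts in replicate 1 and at 0 in replicate 2. The coding transcript Pdk3-201 was at 20.6 and 13.7 TPM. Of Pdk1, coding transcripts held no more than 19.9% and 30.8% of the gene's TPM, and its most abundant model was Pdk1-204, a 1060-base processed transcript at 11.2 and 4.73 TPM. On coding transcripts Pdk3 led in both libraries (46.4% and 52.7% of the family), and on transcripts of 1000 bases or more Pdk1 did (37.1% and 42.9%). Which kinase was the most abundant therefore depended on the transcripts counted. The presence of Pdk1, Pdk2 and Pdk3 and the near absence of Pdk4 held under each of these counts.

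**Figure D3:**
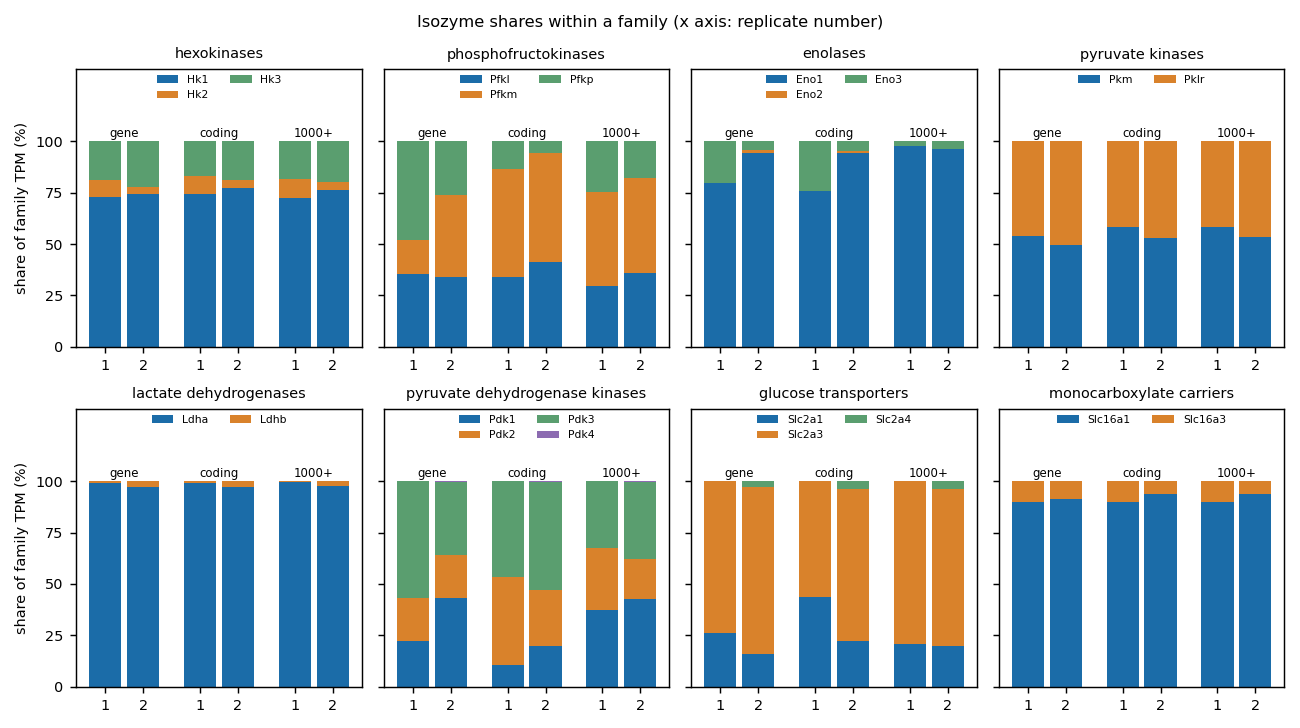
Share of each isozyme in the TPM of its family (percent, stacked to 100) for 8 families in replicates 1 and 2, from whole genes (left pair of bars), coding transcripts (middle) and transcripts of 1000 bases or more (right). Hk1, Ldha, Eno1, Slc2a3 and Slc16a1 lead in every bar of their families, while the leading phosphofructokinase and pyruvate dehydrogenase kinase change with the transcripts counted.

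All 3 subunit genes of the pyruvate dehydrogenase complex listed here were detected. Pdha1, the E1 alpha subunit, was at 47.5 and 33.9 TPM (40.7 ± 9.60, SD, n = 2). Pdhb, the E1 beta subunit, was at 10.6 and 27.4 TPM (19.0 ± 11.9, SD, n = 2). These subunits pair in equal numbers in the enzyme, yet the ratio of Pdha1 to Pdhb was 4.50 in replicate 1 and 1.24 in replicate 2. On coding transcripts it was 2.69 and 0.960, so the order of the subunits turned in replicate 2. Dlat, the E2 subunit, was at 29.0 and 18.9 TPM (23.9 ± 7.18, SD, n = 2). From the list of other pyruvate entry genes, 8 of 8 were detected in both libraries, among them Dld, the E3 subunit, at 17.6 ± 9.36 TPM, Mpc1 of the mitochondrial pyruvate carrier at 17.3 ± 5.15 TPM, the phosphatase gene Pdp1 at 5.97 ± 4.79 TPM and the E3-binding protein gene Pdhx at 5.33 ± 1.30 TPM (SD, n = 2 for each).

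All 13 listed genes of the TCA cycle were detected in both libraries, beside 45.5% of protein coding genes. On gene totals 13 of 13 lay within 2-fold between the libraries, beside 84.6% of protein coding genes detected in both. On coding transcripts 11 of 13 did, since Idh3g and Mdh1 were over 2-fold higher in replicate 2. Cs, citrate synthase, was at 88.3 and 80.9 TPM (84.6 ± 5.25, SD, n = 2). Aco1, a cytosolic enzyme that doubles as an iron sensor, was low at 7.51 and 9.04 TPM (8.28 ± 1.08, SD, n = 2). Ogdh, the E1 subunit of the 2-oxoglutarate dehydrogenase complex, was at 65.6 and 68.5 TPM (67.1 ± 2.05, SD, n = 2), and its E2 subunit Dlst at 25.2 and 46.0 TPM (35.6 ± 14.8, SD, n = 2).

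Isocitrate dehydrogenase of the cycle is built from the catalytic subunit Idh3a and the subunits Idh3b and Idh3g. Idh3a was at 34.9 and 34.6 TPM (34.7 ± 0.247, SD, n = 2) and Idh3b at 78.4 and 65.5 TPM (71.9 ± 9.10, SD, n = 2). Idh3g (chrX:73778963-73786897, minus strand, GRCm38) was at 136.0 and 91.6 TPM (113.8 ± 31.4, SD, n = 2), the highest gene total of the cycle. Much of that total lay outside coding transcripts. The coding transcript Idh3g-201 was at 12.9 and 43.9 TPM, or 9.47% and 48.0% of the gene, and the retained-intron model Idh3g-203, 641 bases long, was at 62.7 and 10.2 TPM. On coding transcripts Idh3g was therefore below Idh3a in replicate 1 and above it in replicate 2.

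Succinyl-CoA ligase joins the alpha subunit Suclg1 to a beta subunit that fixes the nucleotide, Suclg2 for GTP or Sucla2 for ATP. Suclg1 was at 11.8 and 17.9 TPM (14.9 ± 4.29, SD, n = 2). Suclg2 was at 24.2 and 15.1 TPM (19.6 ± 6.41, SD, n = 2), and Sucla2 at 8.24 and 9.74 TPM (8.99 ± 1.06, SD, n = 2). Suclg2 was the higher beta subunit in each library, with 74.6% and 60.8% of their TPM. Fh1, fumarase, was among the lowest of the cycle at 7.29 and 11.8 TPM (9.56 ± 3.20, SD, n = 2).

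Malate dehydrogenase closes the cycle. Mdh2, the mitochondrial form, was at 80.7 and 69.5 TPM (75.1 ± 7.88, SD, n = 2), and the cytosolic Mdh1 at 49.0 and 37.3 TPM (43.2 ± 8.31, SD, n = 2). In Mdh1, the 644-base processed transcript Mdh1-203 carried 43.9 TPM in replicate 1 but 3.93 in replicate 2. In Mdh2, the 1112-base model Mdh2-203, annotated as a target of nonsense-mediated decay, carried 55.9 and 17.7 TPM. On coding transcripts Mdh2 was at 24.8 and 45.5 TPM and Mdh1 at 4.87 and 32.9 TPM, so Mdh2 led on either count. Of the other 14 TCA genes listed, 10 were detected in both libraries, among them all 4 succinate dehydrogenase subunit genes: Sdha at 50.1 ± 5.54 TPM, Sdhb at 18.0 ± 3.85 TPM, Sdhc at 28.9 ± 5.49 TPM and Sdhd at 19.3 ± 0.700 TPM (SD, n = 2 for each). Acly, which turns exported citrate into cytosolic acetyl-CoA, was at 49.6 and 70.8 TPM. The remaining 4, Ogdhl, Me1, Me3 and Pck1, were not detected in either library.

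All 4 pentose phosphate genes were detected in both libraries and lay within 2-fold, as did 84.6% of protein coding genes so detected. G6pdx, the entry enzyme that makes NADPH, was at 33.8 and 39.0 TPM (36.4 ± 3.70, SD, n = 2). Pgd, the other NADPH-producing enzyme, was at 19.6 and 27.9 TPM (23.7 ± 5.89, SD, n = 2). In the non-oxidative branch, which returns pentoses to glycolysis, Tkt (transketolase) was at 77.2 and 96.5 TPM (86.9 ± 13.6, SD, n = 2). Taldo1 (transaldolase) was at 37.6 and 30.5 TPM (34.1 ± 4.99, SD, n = 2). Tkt was the highest of the 4 in both libraries. The order of G6pdx and Taldo1 turned between the libraries, so these neighbours did not differ beyond their spread. Of 10 other genes of the pathway, 7 were detected in both libraries, led by Pgls at 20.2 ± 1.91, Rpia at 19.5 ± 0.587 and Prps1 at 19.1 ± 2.94 TPM (SD, n = 2 for each). Tktl1 and Tktl2 were not detected in either library, and Tigar was detected in replicate 1 but not in replicate 2.

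Of the hypoxia-inducible factors, Hif1a, the oxygen-regulated alpha subunit, was at 18.3 and 16.8 TPM (17.6 ± 1.08, SD, n = 2). Its coding transcripts were less even, at 12.4 and 8.44 TPM. Epas1, which encodes the related alpha subunit HIF-2 alpha (chr17:86753700-86833410, plus strand, GRCm38), had no count in either library; 3 counts would be 0.0180 and 0.0319 TPM, for counting error only. Among this pair, all RNA detected was thus of Hif1a. Arnt, the partner of both alpha subunits, was at 58.6 and 23.9 TPM (41.3 ± 24.5, SD, n = 2). The 378-base model Arnt-206 held 33.0 TPM in replicate 1 and 0 in replicate 2, and on transcripts of 1000 bases or more Arnt was at 9.57 and 15.7 TPM. Hif1a protein is controlled mainly by its degradation, which RNA does not show.

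In the list of factor partners and brakes, 8 of 9 genes were detected in both libraries, and Arnt2 was not. The highest were Elob at 41.0 ± 18.2 TPM and Eloc at 29.5 ± 12.2 TPM, which serve the ubiquitin ligase that removes Hif1a, and the oxygen sensor gene Egln3 at 12.7 ± 9.97 TPM (SD, n = 2 for each). Of 13 genes known as targets outside these pathways, 1 name was not found in the tables and 9 were detected in both libraries, led by Bnip3l at 74.4 ± 26.3, Ndrg1 at 42.0 ± 14.5 and Kdm3a at 16.1 ± 3.79 TPM (SD, n = 2 for each). Adm, Ankrd37 and P4ha2 were not detected in either library. All 7 genes listed as regulators of the pathway were detected in both libraries, led by Myc at 287 and 172 TPM (229 ± 81.7, SD, n = 2), then Meis1 at 73.5 ± 18.7 TPM and Stk11 at 54.7 ± 3.37 TPM (SD, n = 2). Of 16 further glycolysis isozymes and side enzymes, 6 were detected in both libraries, led by Minpp1 at 46.8 ± 6.26, Adpgk, a glucose-phosphorylating enzyme that uses ADP, at 28.3 ± 1.87 and Pgm2 at 13.2 ± 1.87 TPM (SD, n = 2 for each). Hkdc1, Gapdhs, Pgk2, Pgam2, Eno4, Ldhc and Fbp2, several of them known from testis or muscle, were not detected in either library, and Bpgm, which makes 2,3-bisphosphoglycerate in red cells, was detected in replicate 2 alone. Among 10 further carriers, 4 were detected in both libraries, with Slc2a9 at 4.62 ± 0.304 and Slc2a8 at 4.38 ± 0.184 TPM below Bsg (SD, n = 2), and Slc2a2, Slc2a5, Slc2a6, Slc2a10, Slc2a12 and Slc16a8 in neither. The other regulators of phosphofructokinase, Pfkfb2 at 11.2 ± 4.27 TPM and Pfkfb1 at 2.52 ± 1.66 TPM (SD, n = 2), were both detected.

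Between the libraries the 54 genes moved about as much as other genes. Differences are given as log2(TPM + 1) in replicate 1 minus replicate 2, and a gene was counted past 2-fold when that difference exceeded 1 in size. Of 50 members detected in either library, 6 were over 2-fold higher in replicate 1, beside 13.1% of all genes and 11.2% of protein coding genes detected in either: Eno3 by 2.31, Pfkp by 2.25, Pdk3 by 2.06, Pfkl by 1.49, Pdk2 by 1.34 and Arnt by 1.26. Another 4 were over 2-fold higher in replicate 2, beside 14.0% of all genes and 12.1% of protein coding genes: Pfkfb4 at -1.75, Pdhb at -1.30, Ldhb at -1.27 and Eno2 at -1.21. The remaining 40 (80.0%) lay within 2-fold, beside 76.7% of protein coding genes detected in either library. The median size of the difference was 0.39 for the members and 0.49 for protein coding genes. On counts scaled with TMM or DESeq2 size factors, 3 members instead of 6 were over 2-fold higher in replicate 1, beside 8.82% of all genes with TMM and 11.9% with DESeq2. The counts from TPM lie near the background, and no statement on the members follows from them.

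The 6 genes higher in replicate 1 were then read on transcripts of 1000 bases or more, a reading chosen after these values were seen. Of the 6, 1 stayed over 2-fold, Pdk2, at 19.2 and 7.06 TPM. The other 5 came within 2-fold: Pfkl at 11.0 and 11.4 TPM, Pfkp at 9.19 and 5.63, Pdk3 at 20.6 and 13.7, Eno3 at 1.88 and 2.90, and Arnt at 9.57 and 15.7. Of the 4 higher in replicate 2, 3 stayed over 2-fold. Coding transcripts, the other reading added, gave a different count: 4 members were over 2-fold higher in replicate 1, beside 10.4% of protein coding genes, namely Eno3 by 2.31, Arnt by 1.62, Pdk2 by 1.32 and Pfkp by 1.02. The short models of Eno3 and Arnt are annotated as coding, so that reading keeps them. Among protein coding genes past 2-fold, 617 of 1256 (49.1%) of those higher in replicate 1 stayed past it on the longer transcripts, as did 839 of 1353 (62.0%) of those higher in replicate 2. Mdh1 and Idh3g moved the other way and came to lie over 2-fold higher in replicate 2 on the longer transcripts. The most abundant transcript was under 1000 bases long in replicate 1 for 8 of the 47 genes detected in both libraries (17.0%) and in replicate 2 for 2 (4.26%), beside 23.7% and 17.0% of protein coding genes detected in both.

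**Figure D4:**
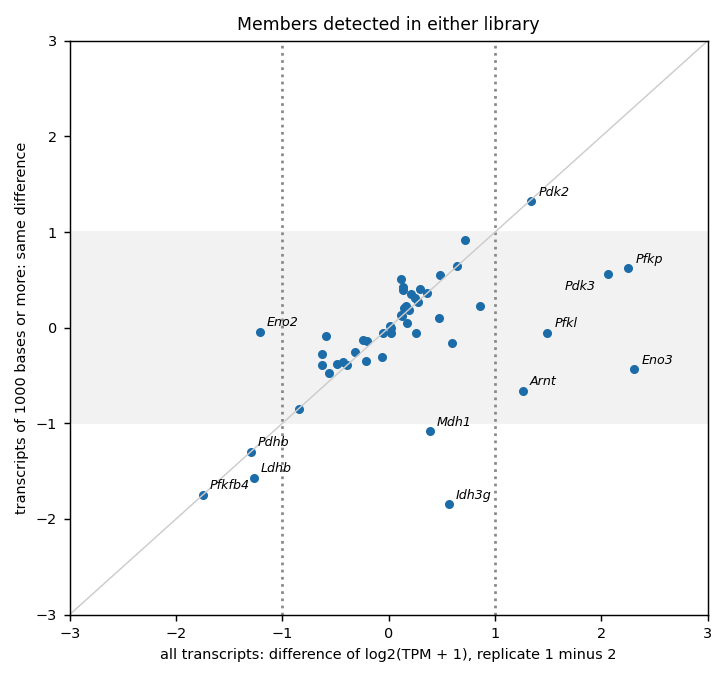
Difference between the libraries in log2(TPM + 1), replicate 1 minus replicate 2, for the members detected in either library, from all transcripts (horizontal) and from transcripts of 1000 bases or more (vertical); dotted lines and the grey band mark 2-fold. Pfkl, Pfkp, Pdk3, Eno3 and Arnt lie past the right dotted line but inside the grey band, whereas Pdk2, Pdhb, Ldhb and Pfkfb4 lie near the diagonal.

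Coding transcripts nonetheless held most of the signal of a typical member. Over the 47 genes detected in both libraries, the median share of TPM on protein coding transcripts was 94.4% in replicate 1 and 89.7% in replicate 2 (92.1% ± 3.33, SD, n = 2). Over all protein coding genes detected in both, it was 100% and 88.9% (94.5% ± 7.83, SD, n = 2). In 21 of the 47 the share was above 90% in both libraries, beside 45.9% of protein coding genes detected in both, so this count is near the background; among the 21 were Hk1, Gpi1, Pfkm, Aldoa, Tpi1, Pgk1, Pkm, Ldha and Cs. It was under 50% in both libraries for 3 genes, Pfkp, Pdk1 and Idh3g, beside 12.7% of protein coding genes detected in both. By the mean of the libraries, the most abundant transcript was not a protein coding one for 7 of the 47: Pfkl, Pfkp, Pdk1, Pdk3, Idh3g, Mdh1 and Mdh2. The same share was not computed over other protein coding genes, so this count is not read as a trait of the members.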

How the data were processed

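The deposited RSEM-style tables, one of genes and one of transcripts per library, were made by the authors on mm10 with GENCODE M4, per the file headers and notes; the aligner, its settings and whether strand was used are not stated in those notes. They hold expected counts, TPM and FPKM as deposited, posterior means of these, the percent of a gene's signal on each transcript as deposited, and interval bounds for TPM, which are deposited as a signal scale with no level stated. Gene and transcript names and biotypes came from GENCODE M21 by ID, and promoters from RefSeq (GRCm38.p6).

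The 54 members, their roles, the 13 isozyme families, 90 other pathway genes in 9 lists and 12 marker lists were chosen with earlier results of these data known, so counts over them are descriptions. Per library, TPM were used as deposited, with a pseudocount of 1 for log2 differences; a floor is 3 counts. Rows without a gene held 0.0120% and 0.00719% of expected counts and were left out. There is 1 group of 2 libraries, so no test was run, and the SD of 2 values is itself imprecise. The labels pool 100 cells per library without stating molecular identifiers, so counts are not independent molecules. All members may be named; of other pathway genes, the 3 highest per list, complex partners and those not detected in both libraries are named, apart from a few that are not reported here.

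Alternatives were FPKM, posterior means, TPM rescaled to nuclear protein coding genes, expected counts (rounded to whole numbers) scaled by TMM (edgeR 4.0.16) or DESeq2 1.42.0 size factors, other thresholds and single libraries. Additional readings of coding transcripts and of transcripts of 1000 bases or more were added after seeing the data. Scripts used Python 3.11.15 (pandas 2.3.3) and R 4.3.3, and were tested on simulated data. Scaling moved the median difference of all genes from 0.10 (log2) in TPM to -0.07 in rescaled TPM, -0.03 with TMM and -0.05 with DESeq2 factors.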

Additional observations from a re-analysis of the deposited data

How the results depend on the processing

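Across the alternatives, 43 to 50 of the 54 genes were detected (47 and 50 in single libraries). The median of 24.1 TPM became 15.6 in FPKM, 84.7 in rescaled TPM and 31.2 over genes detected in both libraries, and was 21.1 to 27.0 in single libraries. The count of members over 2-fold higher in replicate 1 fell from 6 to 3 with TMM, 3 with DESeq2 size factors and 1 on transcripts of 1000 bases or more; that in replicate 2 fell from 4 to 1 among genes detected in both libraries, where fewer genes are counted. On expected counts, without length correction, the mean share in its family was 13.5% for Slc2a1, 75.2% for Hk1, 37.2% for Pfkl, 94.5% for Slc16a1 and 71.7% for Mdh2. On coding transcripts it was 32.9% for Slc2a1, 75.6% for Hk1, 37.6% for Pfkl, 55.5% for Pkm, 15.1% for Pdk1 and 70.8% for Mdh2. On transcripts of 1000 bases or more it was 32.8% for Pfkl, 55.8% for Pkm and 89.5% for Mdh2. Posterior mean TPM gave 87.4% for Slc16a1 and 99.9% for Hif1a. The M2 share of Pkm was 72.4% to 90.6% in single libraries, the Hk1 share 72.8% to 74.2%, the Pkm share 49.3% to 53.8%, the Ldha share 97.1% to 99.3% and the median coding share 89.7% to 94.4%. Of 94 alternative values other than single libraries, 71 stayed within the spread between the libraries, or within 1.5 times for a count; with 2 libraries, a share or median in a single library lies within that spread by construction. The leading isozyme did change: on mean shares Pdk3 led Pdk1 in TPM (46.2% and 32.6%), but Pdk1 led on expected counts (44.0% against 32.8%) and on transcripts of 1000 bases or more (40.03% against 35.0%). Apart from the cases named, the cause of these moves was not tested. Low genes such as Ldhb, Eno2 and Pfkfb4 had few counts in at least 1 of the 2 libraries, and the cause of their differences was not tested. No paired analysis was possible because there is a single group.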
